A study of Homo sapiens with 12 samples.

Results

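ARHGAP11B, RGPD3, INTS4P2 and RPL21P28 are 4 human genes or pseudogenes that arose as copies of other genes, and each was read by 1 transcript cluster (a unit of the array that gathers the probes of a gene or transcript) of the microarray used here. They are 4 of 14884 named genes, and their 4 clusters stand among 53617. The 4 were chosen by symbol, and the symbols were selected on the comparison of mimic with control reported here, as copies among the 12 largest differences of a filtered ranking. It started from the 91 named genes called higher (limma adjusted p under 0.05) when only the brightest 25% of clusters were tested. Symbols beginning with LOC, MIR, LINC or prefixes of other small RNAs were left out. So were genes without all 6 mimic arrays above the control mean. Their difference between groups is therefore a description, and no test of it is given. The parents of the copies are ARHGAP11A, RANBP2, INTS4 and RPL21, which the selection did not use. RPL21 was not analysed here.

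The 12 samples were HEK293 cells, an established human line from embryonic kidney transformed with adenovirus DNA, all transfected with the reagent HiPerfect. Of these, 6 received Syn-hsa-miR-1825, a synthetic double-stranded mimic of the microRNA miR-1825 (group mimic-1825), and 6 received AllStars Negative Control siRNA (group control), both at 5 nM. Total RNA was taken after 24 h and hybridised to Affymetrix Human Gene 2.0 ST arrays, 1 per sample. The series title gives the search for mRNA targets of miR-1825 as the purpose. All cells are of 1 line, and the dose of mimic that reached them was not measured here. The labels do not say that the replicates of a group were grown or transfected apart, so a p-value here covers no more than the spread from sample to sample, part or all of which can be technical.

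Recently duplicated genes keep long stretches of near-identical sequence, and array probes in such stretches can bind transcripts of the parent and of every copy. ARHGAP11A encodes a GTPase-activating protein for RHOA with a role in cell division, and ARHGAP11B is a truncated, human-specific partial copy of it that is known for enlarging the pool of neural progenitors in the developing neocortex. RANBP2 is the large nucleoporin of the cytoplasmic filaments of the nuclear pore, which binds the GTPase RAN and acts as a SUMO E3 ligase. The RGPD genes fuse a shortened RANBP2 to the GRIP end of the golgin gene GCC2 and lie mainly on chromosome 2. INTS4 is a scaffold subunit of Integrator, the complex that cleaves small nuclear RNAs and paused nascent transcripts, and INTS4P2 is a pseudogene of it. RPL21 encodes a protein of the large ribosomal subunit and, like most ribosomal protein genes, left many processed pseudogenes, of which RPL21P28 is 1.

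The sequence of the agent and the closest match between a member and its parent's locus are shown first. The mature miR-1825 of RefSeq (GRCh38.p14, chr20:32237830-32237847, plus strand) has its seed, bases 2 to 8, in capitals. Of the 4 members, 1 (ARHGAP11B) had a RefSeq promoter window, which runs from 250 bases before to 50 after the annotated start. The window was aligned with that of ARHGAP11A-SCG5, a read-through gene that begins at the ARHGAP11A locus 332 bases downstream of the start of ARHGAP11A itself. The aligned stretches lie at chr15:30625878-30626138 and chr15:32615265-32615525 of GRCh38.p14, both on the plus strand, and capitals mark the bases that differ.
hsa-miR-1825: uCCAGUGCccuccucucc
ARHGAP11B: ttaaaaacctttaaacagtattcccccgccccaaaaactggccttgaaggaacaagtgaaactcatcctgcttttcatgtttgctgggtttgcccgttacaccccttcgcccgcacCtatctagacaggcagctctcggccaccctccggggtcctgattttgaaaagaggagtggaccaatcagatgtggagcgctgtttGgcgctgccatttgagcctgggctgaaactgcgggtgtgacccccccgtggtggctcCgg
ARHGAP11A-SCG5: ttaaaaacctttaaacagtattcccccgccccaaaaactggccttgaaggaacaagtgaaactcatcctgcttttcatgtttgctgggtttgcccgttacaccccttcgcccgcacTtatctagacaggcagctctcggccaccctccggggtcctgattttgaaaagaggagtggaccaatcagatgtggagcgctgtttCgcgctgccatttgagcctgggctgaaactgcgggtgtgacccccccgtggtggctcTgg

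Over these 261 columns 258 bases were identical (98.9%), with 3 mismatches and no gap. Both stretches hold the letters CCAAT (the box bound by NF-Y), TTTNGCGC (an E2F-type motif) and TTTGAA (the core of the cell-cycle homology region of many mitotic genes), searched on both strands. Of 35116 RefSeq promoter windows, 34.6% hold CCAAT, 1.79% hold TTTNGCGC and 15.2% hold TTTGAA. These windows run from 250 bases before to 50 after a start and are longer than the printed stretches. Each matched once in the printed ARHGAP11B stretch, with no overlap between them, and 1 of the differing bases lies inside the TTTNGCGC match. In the window of ARHGAP11A's own annotated start none of the 3 motifs was found. That window aligned with the ARHGAP11B window over only 11 columns, 10 of them identical. The long match above is therefore with the window of the read-through start and not with that of the parent's own start. The printed ARHGAP11A-SCG5 stretch lies in the same locus, wholly downstream of the window of ARHGAP11A's own start. The short alignment and the missing motifs thus follow from where the windows were cut. They do not show that the ARHGAP11A locus lacks this sequence or these motifs. In the RANBP2 family the parent's own window was used, so the 2 families are not compared here. The best alignment of the RANBP2 window with RGPD5 matched in 135 of 161 columns (83.9%), while RGPD5 and RGPD6 were identical over 263 columns.

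ARHGAP11B gave log2 values of 8.92, 8.68, 8.80, 8.99, 8.92 and 8.82 in control replicates 1 to 6 and of 9.25, 9.33, 9.17, 9.05, 9.10 and 9.24 in mimic replicates 1 to 6. The groups did not overlap, with 0.06 between the lowest mimic array, replicate 4, and the highest control, also replicate 4. The group means were 8.86 ± 0.11 and 9.19 ± 0.10 (SD, n = 6), a log2 fold change of 0.33 with a standard error of 0.06, or 1.26-fold. By size of difference this copy was number 41 from the top of the 14884 named genes and number 11 of the 6432 named genes in the brightest 25% of clusters.

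RGPD3 gave 7.86, 7.90, 7.83, 7.80, 7.85 and 7.54 in the controls and 8.09, 8.25, 8.24, 8.04, 8.15 and 7.88 after the mimic, in order of replicate number. Of the 6 mimic arrays 5 lay above every control, and mimic replicate 6 lay just under control replicate 2. Replicate 6 was the lowest array in both groups. The means were 7.80 ± 0.13 and 8.11 ± 0.14 (SD, n = 6), a log2 fold change of 0.32 with a standard error of 0.08, or 1.25-fold.

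INTS4P2 gave 7.25, 6.98, 7.20, 7.14, 7.16 and 7.30 in the controls and 7.60, 7.67, 7.52, 7.42, 7.39 and 7.33 after the mimic. The groups did not overlap, but only 0.02 separated mimic replicate 6 from control replicate 6. The means were 7.17 ± 0.11 and 7.49 ± 0.13 (SD, n = 6), a log2 fold change of 0.32 with a standard error of 0.07, or 1.25-fold.

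RPL21P28 gave 10.92, 10.88, 10.85, 10.78, 10.94 and 11.12 in the controls and 11.25, 11.24, 11.19, 11.35, 11.18 and 11.04 after the mimic. Of the 6 mimic arrays 5 lay above every control, and mimic replicate 6 lay below control replicate 6. The means were 10.92 ± 0.12 and 11.21 ± 0.10 (SD, n = 6), a log2 fold change of 0.29 with a standard error of 0.07, or 1.23-fold.

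The 4 copies thus differed between groups by similar amounts, 0.29 to 0.33 on the log2 scale. In each of them all 6 mimic arrays lay above the control mean, which the choice required of every member. In 2 of the 4 the groups did not overlap, where 0.759% of all clusters had all 6 mimic arrays above all 6 controls. In the fit of the brightest 25% of clusters, which was the one used for the choice, 1.42% of clusters were called higher and all 4 copies are among them by construction. Nothing is read from either count, because the choice used this contrast. The ranking that supplied the members held DESI2 in its last place, with a log2 fold change of 0.25, and CEP290 just outside, also at 0.25. ARHGAP11B stood in place 5 of that ranking, INTS4P2 in place 9, RGPD3 in place 10 and RPL21P28 in place 11.

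**Figure D1:**
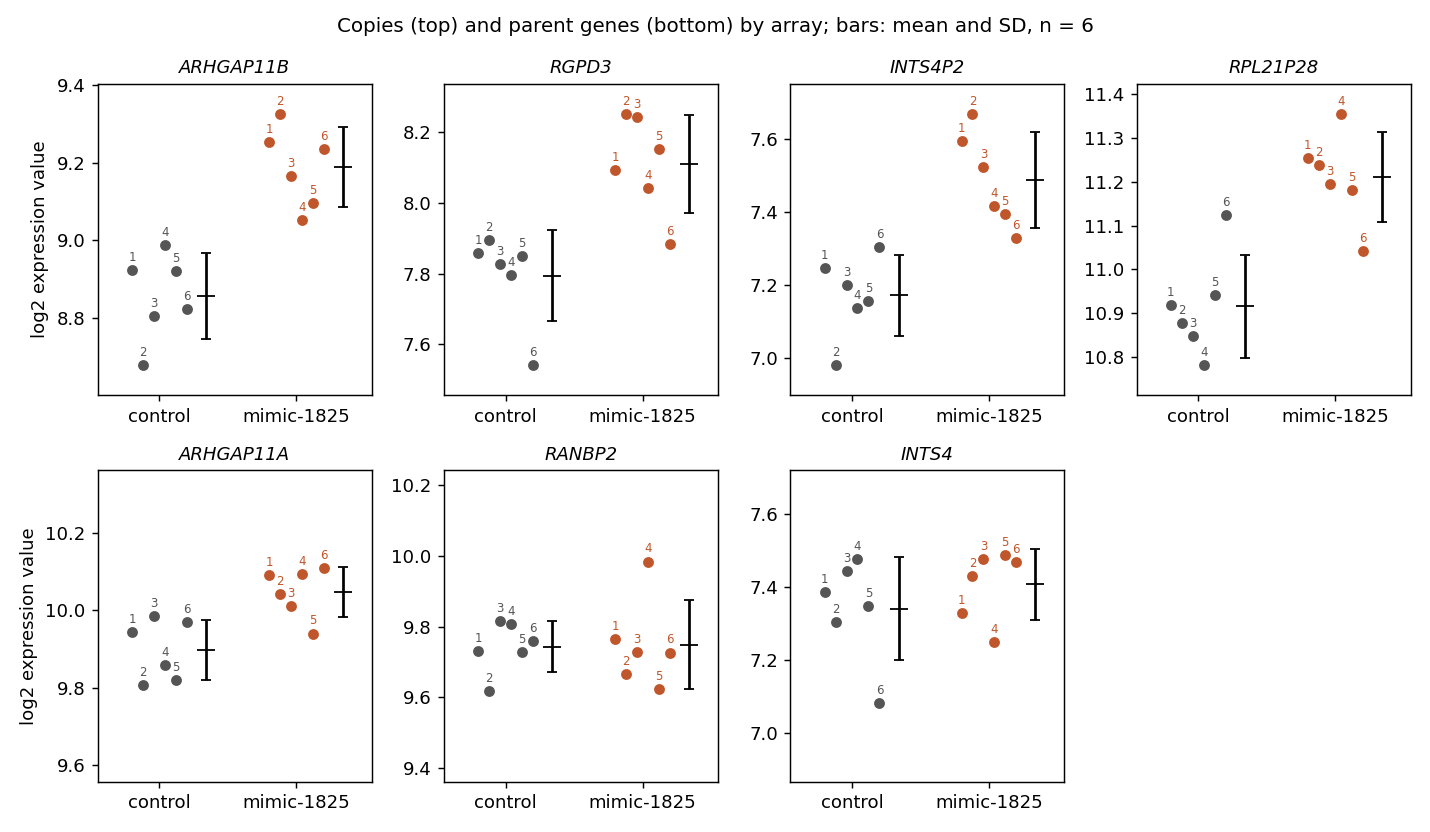
Deposited log2 values of the 4 copies (top) and of 3 parent genes (bottom) on each of the 12 arrays, numbered by replicate, with the mean and SD of the 6 arrays of a group as bars. Each panel has its own vertical axis, and the copies were chosen for the separation seen in the top row, which is complete in ARHGAP11B and INTS4P2 and broken by 1 mimic array in RGPD3 and RPL21P28.

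The parents were tested in the limma fit over all 53617 clusters, in which 6 clusters (0.0112%) passed an adjusted p of 0.05 in either direction and no named gene did. None of the 3 parents measured passed. At an unadjusted p under 0.05 that fit held 5.36% of clusters as higher after the mimic and 5.4% as lower, and 1 of the 3 parents, ARHGAP11A, was among the higher. As the RNA is from bulk samples, fewer cells of a kind and less RNA per cell cannot be told apart in any of these values.

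ARHGAP11A gave control values of 9.94, 9.81, 9.98, 9.86, 9.82 and 9.97 and mimic values of 10.09, 10.04, 10.01, 10.09, 9.94 and 10.11. All 6 mimic arrays lay above the control mean and 5 of 6 above every control, and mimic replicate 5 fell within the control range. The means were 9.90 ± 0.08 and 10.05 ± 0.06 (SD, n = 6), a log2 fold change of 0.15 with a 95% interval of 0.04 to 0.26 (limma adjusted p = 0.316), or 1.11-fold. The log2 value of ARHGAP11B minus that of ARHGAP11A on the same array averaged -1.04 ± 0.13 in controls and -0.86 ± 0.11 after the mimic (SD, n = 6), a shift of 0.18. The shift includes the difference for which ARHGAP11B was chosen and was not tested.

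RANBP2 gave control values of 9.73, 9.62, 9.82, 9.81, 9.73 and 9.76 and mimic values of 9.77, 9.67, 9.73, 9.98, 9.62 and 9.73. The groups overlapped throughout, and mimic replicate 4 stood alone above the controls. RANBP2 differed by 0.01 on the log2 scale, with -0.13 to 0.14 as the 95% interval (limma adjusted p = 0.987), and its sign turned to -0.02 after quantile normalization. RGPD3 minus RANBP2 on the same array averaged -1.95 ± 0.17 in controls and -1.64 ± 0.22 after the mimic (SD, n = 6), a shift of 0.31, again as a description.

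INTS4 gave control values of 7.39, 7.31, 7.44, 7.48, 7.35 and 7.08 and mimic values of 7.33, 7.43, 7.48, 7.25, 7.49 and 7.47. The groups overlapped, with control replicate 6 the lowest of the 12 arrays. INTS4 differed by 0.07 on the log2 scale, with -0.09 to 0.22 as the 95% interval (limma adjusted p = 0.776), and without control replicate 6 it was 0.01. INTS4P2 minus INTS4 on the same array averaged -0.17 ± 0.21 in controls and 0.08 ± 0.17 after the mimic (SD, n = 6), a shift of 0.25 that was not tested.

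**Figure D2:**
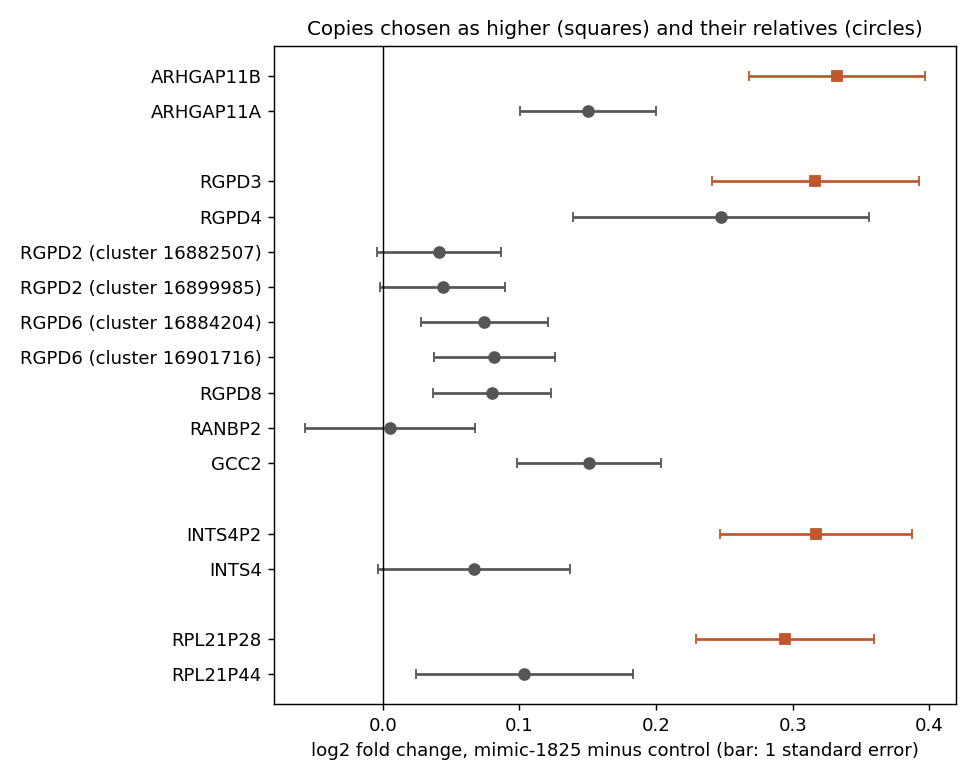
Log2 fold change (mimic-1825 minus control, 6 arrays each) of the 4 copies as squares and of their measured parents and relatives as circles, with 1 standard error as bars. The copies were chosen for their position at 0.29 to 0.33, RGPD4 lies nearest to them at 0.25, and RANBP2 lies at 0.01.

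The relatives of RGPD3 were measured by further clusters, none of which passed the limma test over all clusters. RGPD4, the next RGPD gene along the chromosome, gave 6.60 ± 0.27 in controls and 6.85 ± 0.10 after the mimic (SD, n = 6), a log2 fold change of 0.25 with a 95% interval of 0.01 to 0.48 (limma adjusted p = 0.445). All 6 mimic arrays lay above the control mean, yet none lay above every control, because control replicate 6 reached 7.07. The RGPD2 gene had 2 clusters, both 0.04 higher on the log2 scale (limma adjusted p = 0.788 for cluster 16882507 and 0.772 for cluster 16899985). The RGPD6 gene also had 2, with 0.07 in cluster 16884204 and 0.08 in cluster 16901716 (limma adjusted p = 0.602 and 0.541), and RGPD8 had 0.08 (limma adjusted p = 0.539). GCC2, the golgin that lent the RGPD genes their GRIP end, gave 8.67 ± 0.05 in controls and 8.82 ± 0.10 after the mimic (SD, n = 6), which is 0.15 higher on the log2 scale (limma adjusted p = 0.338).

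Of the 8 listed genes of the RANBP2 family other than RGPD3, GCC2 included, 6 were measured, and all 6 had a higher mean after the mimic, with a median log2 fold change of 0.08. Of all named genes, bright and dim, 50.1% had a higher mean and the median was 0.0002. The 6 are not separate observations, as the clusters of RGPD2, RGPD6 and RGPD8 varied together over the arrays (r of 0.85 to 0.996). The 6 are also bright, with a median level of 9.74. Among the 6432 named genes in the brightest 25% of clusters, RANBP2 at 0.01 stood only at number 3642 from the top. Most of those bright genes were thus higher too. Of the 6, the 2 higher at an unadjusted p under 0.05 were RGPD4 and GCC2, where 6.69% of all named genes were higher and 4.19% lower. After quantile normalization 5 of the 6 were higher, RANBP2 being the exception. RGPD1 and RGPD5 were not analysed here. The other measured RPL21 pseudogene, RPL21P44, lay at the dim end of the array, at 3.19 ± 0.16 in controls and 3.30 ± 0.12 after the mimic (SD, n = 6; limma adjusted p = 0.677), and INTS4P1 was not analysed here.

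Whether a copy and its parent varied together from array to array was asked within each group. The choice of members did not use this relation, although the spread of the members within groups entered the limma p of the choice. In ARHGAP11B and ARHGAP11A, Pearson's r was 0.05 in the controls (exact permutation p = 0.913, Spearman's rho 0.03, p = 1.0, n = 6) and 0.28 after the mimic (exact permutation p = 0.588, rho 0.09, p = 0.919, n = 6). In RGPD3 and RANBP2 it was -0.33 in the controls (exact permutation p = 0.457, rho -0.71, p = 0.136) and -0.36 after the mimic (p = 0.469, rho -0.43, p = 0.419). In INTS4P2 and INTS4 it was -0.33 in the controls (exact permutation p = 0.486, rho -0.26, p = 0.658) and -0.13 after the mimic (p = 0.796, rho -0.37, p = 0.497). Benjamini-Hochberg adjusted p over these 6 relations was 0.881 to 0.913 for r and 0.817 to 1.0 for rho. Without the 2 arrays farthest from the median of the parent, r in the same order was -0.67, -0.54, -0.21, -0.42, 0.79 and -0.77, so that 3 of the 6 signs turned.

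The RGPD clusters varied from array to array in a shared way, a pattern noticed after the data were seen. Over the deviations of all 12 arrays from their group means, the 5 clusters of RGPD2, RGPD6 and RGPD8 correlated with each other at r from 0.85 to 0.996 in their 10 pairs. RGPD3 correlated with the same 5 clusters at -0.75 to -0.66. RGPD4 correlated with them at 0.31 to 0.53 and RANBP2 at 0.46 to 0.67. These clusters come from the same arrays and can share probe sequence, and how many probes they share was not tested.

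RGPD3 was also related inversely to these clusters within each group. It had r between -0.61 and -0.49 with the 5 clusters in the controls and between -0.92 and -0.81 after the mimic, each over 6 arrays. Spearman's rho ran from -0.94 to -0.54 in the controls and from -0.94 to -0.66 after the mimic. None of the 72 relations computed in the family had an adjusted p under 0.05 by exact permutation, and for RGPD3 with the 5 clusters the adjusted p of r was 0.413 to 0.567 in the controls and 0.06 to 0.158 after the mimic. Over 6 arrays there are only 720 pairings, and the lowest unadjusted permutation p of r was 0.0014. A single relation could not pass over 72 at that value, so little can be read from the lack of passes. Here the 2 arrays left out were those farthest from the median of RGPD3, not of the parent as above. Without them r of RGPD3 with the 5 was -0.97 to -0.85 in the controls and -0.92 to -0.70 after the mimic. Among the 5 clusters themselves r was 0.82 to 0.9996 in the controls and 0.87 to 0.99 after the mimic (adjusted p of 0.06 to 0.158 by exact permutation in both). Without the 2 arrays farthest from the median of the first cluster of a pair, r among the 5 ranged from 0.60 to 0.998 in the controls. After the mimic it ranged from -0.63 to 0.95, so there some of these relations rest on those arrays.

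RGPD3 was at its lowest on replicate 6 of both groups, 7.54 in control and 7.88 in mimic. RGPD8 read 10.57 and 10.70 on the same arrays, and only the latter was the highest of its group. Among the controls RGPD8 was highest on replicate 4, at 10.60, where RGPD3 lay at its group mean of 7.80. RGPD4 reached its highest control value, 7.07, on control replicate 6.

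**Figure D3:**
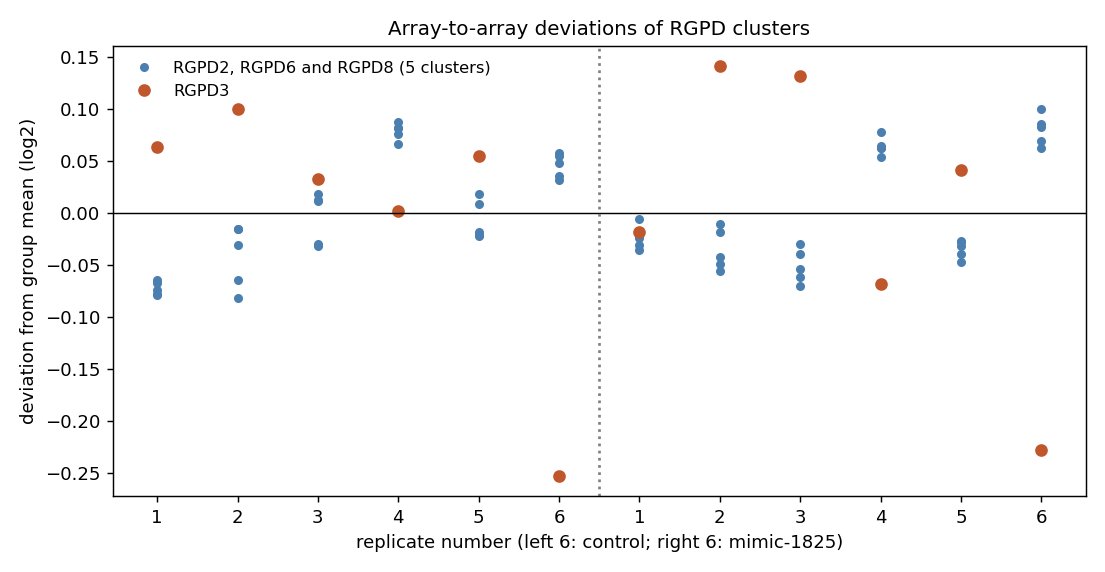
Deviation of each array from its group mean (log2) for RGPD3 and for the 5 clusters of RGPD2, RGPD6 and RGPD8, with control replicates 1 to 6 on the left and mimic-1825 replicates 1 to 6 on the right. The 5 clusters lie close together on each array, and RGPD3 lies farthest below them on replicate 6 of both groups.

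**Figure D4:**
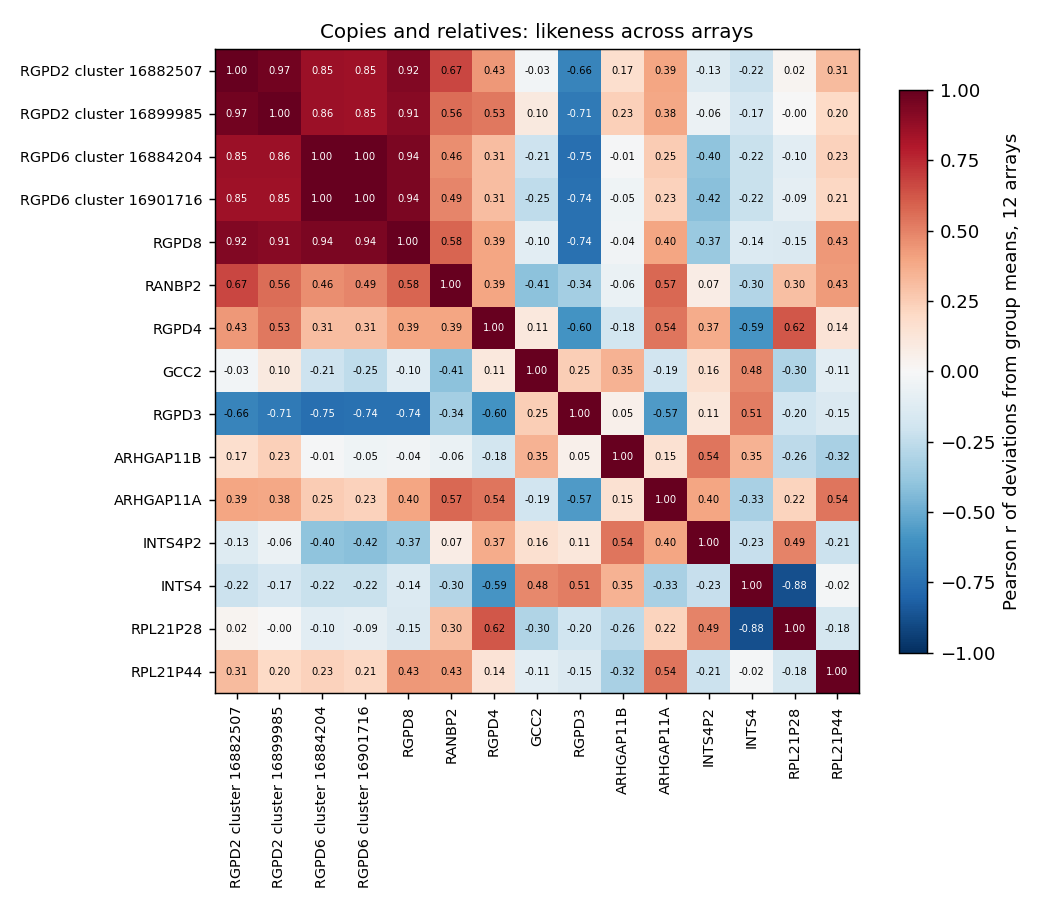
Pearson's r of the deviations from group means over 12 arrays for each pair of copies, parents and relatives, with red for positive and blue for negative values. The block of RGPD2, RGPD6 and RGPD8 at the top left has r from 0.85 to 0.996, and the row of RGPD3 is blue against it.

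Among the 4 copies themselves the highest r of deviations over 12 arrays was between INTS4P2 and ARHGAP11B, at 0.54 (0.44 in the controls and 0.63 after the mimic, 6 arrays each). INTS4P2 with RPL21P28 had 0.49 (0.57 and 0.42). For RGPD3 the pooled value hides opposite signs in the groups. With INTS4P2 it had 0.11 over 12 arrays, -0.67 in the controls and 0.73 after the mimic, and with RPL21P28 it had -0.20, -0.77 and 0.40. Of the values between a member and another gene of the families shown, the farthest from 0 was that of RPL21P28 with INTS4, at -0.88 (-0.94 and -0.79). All of these are descriptions with no p, over values that share their arrays.

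The named genes whose deviations most resembled each copy were sought among 11480 named clusters whose mean reached the median of all clusters. For ARHGAP11B they were HNRNPA2B1, which encodes an RNA-binding protein of the hnRNP family, at r = 0.94, CLIP1, a microtubule plus-end protein, at 0.91, and TMEM67, a ciliary membrane protein, at 0.90. For RGPD3 they were INTS10, an Integrator subunit, at 0.94, the kinase MAST2 at 0.93 and the prostaglandin reductase PTGR2 at 0.91. For INTS4P2 they were ESYT3, RSL1D1, a nucleolar protein, and the nucleoporin NUP88, each at 0.88. For RPL21P28 they were the ryanodine receptor gene RYR1 at 0.90, the actin-binding protein COTL1 at 0.90 and the kinase TP53RK at 0.89. These 12 were picked as the highest of 11480 correlations for each copy, each over only 12 arrays. Among so many, a high r can arise by chance alone, and how high was not tested. No relation or shared function is therefore read from these genes. None of the 12 passed the limma test between groups. Their log2 fold changes ran both ways, from -0.17 in ESYT3 to 0.16 in PTGR2, while the copies lay at 0.29 to 0.33.

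The positions of the copies in RefSeq place other genes beside or over them. RPL21P28 overlaps DTL, which encodes a substrate receptor of the CRL4 ubiquitin ligase, and DTL differed by 0.06 on the log2 scale (limma adjusted p = 0.652). ARHGAP11B overlaps the pseudogene LOC100288637, with 0.16 (limma adjusted p = 0.563), and INTS4P2 overlaps the long non-coding RNA gene LINC03006, with -0.08 (limma adjusted p = 0.551). Which strand each cluster reads was not used here.

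The nearest measured genes on either side of the 4 copies were 16. Of these 8 had a higher mean after the mimic, against 50.1% of named genes, and 0 passed the limma threshold over all clusters, with log2 fold changes from -0.31 to 0.26. With an unadjusted p under 0.05, RGPD4, ZNF117, ZNF92 and PACC1 were higher and MIR3122 lower, 5 of the 16, where 6.69% of named genes were higher and 4.19% lower. Next to INTS4P2 lie the zinc finger genes ZNF92, with 0.24 (limma adjusted p = 0.292), and ZNF117, with 0.26 (limma adjusted p = 0.457). Beside RPL21P28, the chloride channel gene PACC1 had 0.15, INTS7 had 0.09 and the microRNA gene MIR3122, at the dim end, had -0.30. Beside ARHGAP11B the nuclease gene FAN1 had 0.06 and the pseudogene ULK4P3 had 0.04. RGPD3 is followed by the RGPD4 gene and RGPD4-DT, a non-coding RNA at the dim end with -0.15 (limma adjusted p = 0.538).

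Genes that work with the parents' products were read in the same limma fit, and none of them passed its threshold. The shares of named genes set beside the lists below are over bright and dim genes alike. Of 15 Integrator subunits 11 were measured, 6 higher and 5 lower in mean, with a median log2 fold change of 0.003. INTS8 had 0.17 (limma adjusted p = 0.263), INTS5 had -0.21 (limma adjusted p = 0.290) and INTS6 had 0.13. Of the 11, 1 was higher and 1 lower at an unadjusted p under 0.05, against 6.69% and 4.19% of named genes. After quantile normalization 4 of 11 were higher and the median was -0.02.

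Of 19 genes of the RAN cycle and the SUMO machinery around RANBP2 10 were measured, 6 higher and 4 lower, with a median of 0.03 and none at an unadjusted p under 0.05 in either direction. The importin KPNB1 had 0.06 (limma adjusted p = 0.545). Of the 10 genes it was the 1 with all 6 mimic arrays above all 6 controls, as were 0.759% of all clusters. RANBP1 had 0.06 and the RAN importer NUTF2 0.12. Of 27 nucleoporins 23 were measured, at a median level of 9.81. Of these 17 were higher and 6 lower (50.1% of named genes, bright and dim, were higher), with a median log2 fold change of 0.04. Those higher at an unadjusted p under 0.05 were 3, NUP43 with 0.13 (limma adjusted p = 0.313), NUP107 with 0.11 and NUP50 with 0.11, and 0 were lower, beside 6.69% and 4.19% of named genes. After quantile normalization 5 of the 10 RAN and SUMO genes and 14 of the 23 nucleoporins were higher.

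Of 19 genes of the RHOA cycle and cytokinesis, the setting of ARHGAP11A, 13 were measured, 8 higher and 5 lower, with a median of 0.01. The exchange factor ECT2 had 0.12 (limma adjusted p = 0.340), ARHGAP5 had 0.14 and ARHGAP29 had 0.10. Of the 13, 2 were higher and 0 lower at an unadjusted p under 0.05, where the shares of named genes were 6.69% and 4.19%. After quantile normalization 6 of the 13 were higher and the median was -0.01.

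Of 46 proteins of the large ribosomal subunit 28 were measured, 17 higher and 11 lower, with a median of 0.01. RPL31 had 0.27 (limma adjusted p = 0.420), RPL6 had 0.10 and RPL14 had 0.10. Of the 28, 2 were higher and 0 lower at an unadjusted p under 0.05, a share of higher genes near the 6.69% of all named genes (4.19% were lower). After quantile normalization 13 of the 28 were higher, with a median of -0.01.

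Other genes known from recent human segmental duplications were taken from a list of 115 symbols, of which 33 were measured. Of these 21 were higher and 12 lower in mean, with a median of 0.07, and the count of higher genes was also 21 after quantile normalization. At an unadjusted p under 0.05, 5 of the 33 were higher and 0 lower (6.69% and 4.19% of named genes), and none passed the limma threshold over all clusters. The mismatch repair gene PMS2, which has many copies, had 0.18 (limma adjusted p = 0.308). ANKRD36B had 0.25 (limma adjusted p = 0.313) and the cohesin-related copy STAG3L3 had 0.26 (limma adjusted p = 0.406). Of the 447 transcribed pseudogenes named on the array, 55.9% were higher in mean with a median of 0.02, against 52.0% of 11915 protein-coding genes. At an unadjusted p under 0.05, 8.28% of these pseudogenes were higher and 5.15% lower, against 7.36% and 3.71% of the protein-coding genes.

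The identity of the cells was checked on markers. Of 8 markers of HEK293 cells 5 were measured, at log2 means from 5.60 to 9.99, while NEFM, NEFL and CKB were not analysed here. For comparison, 7 of 12 markers of leukocytes, fibroblasts, endothelium and hepatocytes were measured at 2.66 to 5.71. The ranges overlap, as the fibroblast marker LUM lay above the lowest HEK293 marker. The HEK293 markers KRT18, VIM and KRT8 had log2 fold changes of -0.10, -0.07 and -0.09. Of the 5, 4 were lower in mean after the mimic, 1 of them (KRT18) at an unadjusted limma p under 0.05. Of all named genes, 50.1% were higher in mean, and 4.19% were lower and 6.69% higher at that p. With 5 markers, no change of cell identity is read from these counts. The other-cell markers APOA1, LUM and ALB had -0.09, 0.06 and 0.05, and none of the markers passed the limma threshold. The part of these differences in the values of the copies was not tested. No pair of arrays held the same values throughout, and the highest correlation between any pair of arrays was 0.994.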

How the data were processed

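The deposited table holds 1 log2 expression value per array and transcript cluster. Per the submitters' processing notes, the authors computed these log2 values in Affymetrix Expression Console. Not given in the sources used here are its version, background correction and normalization. The log2 scale was read from the values, which run from 1.62 to 14.4 with array medians of 4.44 to 4.51, and no further scaling was applied. Probe-level intensities were not used, so no background level was set, and the number of arrays limits the precision.

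Clusters were named through the platform annotation: 16098 of 53617 had 1 gene symbol and 37519 were unnamed here. All 16098 matched RefSeq (GRCh38.p14) by gene ID, and 0 symbols changed. The genome build behind the probes is unknown from these sources, so only RefSeq sequences carry coordinates. Probes of near-identical copies can read each other's transcripts, so the assignment of a value to 1 copy is uncertain.

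The test was limma 3.58.1 (R 4.3.3; lmFit and eBayes, all clusters, two-sided, Benjamini-Hochberg threshold of 0.05). It was tried on simulated data with changes larger than any log2 fold change given here. That trial does not show whether differences of the size given here would be found. The members and lists were chosen with earlier results of these data known. Named genes were the members, parents and measured relatives, the 3 smallest p of each list, the 3 named clusters most like each member, and the genes at the edge of the ranking. The brightest cluster stood for a gene in lists. The same replicate numbers recur in both groups, and deviations of same-numbered arrays correlated at -0.11 to 0.08. Such low values cannot exclude a pairing that touches some clusters, and RGPD3 was lowest on replicate 6 of both groups. The main fit used no pairing. The alternatives were a replicate block, quantile normalization, median centring, a trend and robust prior, filters on dim clusters, named genes only, group medians, and leaving out each array.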

Additional observations from a re-analysis of the deposited data

Results flagged for a closer look

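Of 108 groups of 6 arrays examined, over 54 clusters named in the text, 4 had 1 array standing apart from the other 5 by Dixon's criterion, which chance meets in about 1 of 20 groups. RGPD3 was 7.54 on control replicate 6, where the other controls lay between 7.80 and 7.90. STAG3L3 was 7.44 on mimic replicate 2, above the 6.86 to 7.07 of the other mimic arrays. KRT8 was 5.81 on mimic replicate 1, below the 6.26 to 6.37 of the others. DESI2, the gene in the last place of the ranking that supplied the copies, was 9.49 on mimic replicate 4, above the 9.20 to 9.31 of the others. Without control replicate 6, the log2 fold change of RGPD3 was 0.27 in place of 0.32.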

How the results depend on the processing

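The 4 copies were chosen for their difference, so its direction under other settings is no sign of stability, and the block, the prior and the filters leave the log2 fold change as it is by construction. With 1 array left out, ARHGAP11B ranged from 0.30 (without control replicate 2) to 0.36 (without mimic replicate 4), RGPD3 from 0.27 (without control replicate 6) to 0.36 (without mimic replicate 6), INTS4P2 from 0.28 (without control replicate 2) to 0.35 (without mimic replicate 6), and RPL21P28 from 0.27 (without mimic replicate 4) to 0.34 (without control replicate 6). Among the parents, ARHGAP11A and INTS4 kept their sign, with limma adjusted p of 0.078 to 0.462 and 0.594 to 0.958. RANBP2 turned to -0.017 after quantile normalization, -0.017 as a difference of medians, -0.019 without control replicate 2 and -0.042 without mimic replicate 4, and its leave-one-out values ran from -0.042 to 0.031 (adjusted p 0.807 to 0.995 over all settings). The cause was not tested. Of the correlations between copy and parent, that of ARHGAP11B with ARHGAP11A turned to -0.67 in controls and -0.54 after the mimic without the 2 farthest arrays, and that of INTS4P2 with INTS4 in controls turned to 0.79.

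The number of clusters passing limma's threshold was 6. It was 39 with a trend and robust prior, 13 among clusters at or above the median, 242 in the brightest 25% and 0 with 1 cluster per named gene, where fewer clusters are tested. With the replicate block it was 0, and the block changed no call of a parent. Leaving out 1 array gave 0 to 6: the count was 0 without control replicate 1, 2 or 3 or mimic replicate 1, 2, 4, 5 or 6, and 2 without control replicate 4 or mimic replicate 3. At an unadjusted p under 0.05 there were 2874 higher and 2896 lower clusters. The median standard error of 0.07 among clusters at or above the median, with 6 arrays a group, limits what differences of the parents can be seen.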
